A study of Homo sapiens with 6 samples.

Results

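Macropinocytosis is the engulfment of fluid and dissolved cargo by folds of plasma membrane. In U87 cells sorted by their uptake of a cyclic peptide, 44 genes of the machinery behind it were followed. The genes were chosen by name, as activators of the GTPase Rac, the WAVE and Arp2/3 actin assemblies, phosphoinositide enzymes and factors that close or receive the vesicle. Of the 44 symbols, 43 had a row among the 25680 symbols of the count files, and all 43 passed the filter on low counts, as did 14598 symbols in all. RABANK1 had no row. Rabankyrin-5 is the product of ANKFY1, which is also among the 44 and has its own values, so the names may stand for the same gene. U87 is an established human glioblastoma line, labelled WT. All cells were given EPP6, a cyclic peptide tagged with rhodamine, at 500 nM for 1 h, were detached and were then sorted by fluorescence. High uptake is the brightest 30% of cells and low uptake the dimmest 30%, with 3 libraries each, numbered 2, 3 and 4. Every group thus received the peptide, and none of the libraries came from untreated cells.

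In macropinocytosis, guanine nucleotide exchange factors load Rac with GTP at the membrane. Active Rac engages the WAVE complex, which switches on Arp2/3, and Arp2/3 builds the branched actin that pushes out a ruffle. PI 3-kinase and phospholipase C shape the lipids of the forming cup, and further proteins seal it and pass it on as a macropinosome. In glioma cells, Rac activators such as those of the DOCK, VAV and TRIO families are known for roles in invasion and ruffling. The sort separates cells by bound or internalised peptide and not by a route of entry.

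Total counts ran from 13712263 to 40742857 per library, and high replicate 3 was the shallowest. Counts were scaled to library size by the TMM method, giving CPM, and tested with edgeR's quasi-likelihood test. A gene is called where its Benjamini-Hochberg adjusted p over all tested genes is under 0.05. The labels do not tell whether replicates came from separate cultures. The p-values therefore reflect the spread of these 6 samples alone, and that spread may be technical. In bulk samples, fewer cells expressing a gene and less RNA per cell cannot be told apart. The markers of the line were present. VIM stood at 10534 CPM in high and 10268 CPM in low uptake, while GFAP, the defining gene of astrocytes, was below 1 CPM in both. Of 10 line markers, FN1, SPARC and IGFBP3 were called higher, with log2 fold changes of 1.82, 0.56 and 0.67, and 0 lower. FN1 stood at 6617 CPM in high and 1868 CPM in low uptake. Summed, the 10 gave 25264 to 27995 CPM in high and 19776 to 20985 CPM in low uptake, with no overlap. Among markers of other cell types, AQP4 of 6 astrocyte genes, OLIG1 and MOG of 5 oligodendrocyte genes and AIF1 of 7 immune genes had 0 counts in every library, and others had reads. SLC1A3 stood at 34.6 CPM in high and 39.0 CPM in low uptake on average, CD68 at 267 and 254 CPM, CSF1R at 16.9 and 19.8 CPM and OLIG2 at 1.01 and 1.39 CPM. None of the astrocyte, oligodendrocyte or immune genes was called. Of 6 neuronal genes, SNAP25 was called higher and MAP2 lower. SLC1A3 and OLIG2 were each lower in every high-uptake library than in any low-uptake library. The summed level was 34.4 to 38.8 CPM in high and 39.2 to 42.1 CPM in low uptake for the astrocyte genes, with no overlap. For the immune genes it was 275 to 303 and 252 to 304 CPM, ranges that overlapped. Genes of the G2/M phase summed to 2440.1 to 2587 CPM in high and 2404 to 2726 CPM in low uptake, ranges that overlapped. Of 12 such genes, TOP2A was higher and CDC20 lower. Genes of S phase summed to 2220.4 to 2325 CPM in high and 2082 to 2155 CPM in low uptake, with no overlap, and TYMS alone of the 12 was called, as higher. The part of the cell cycle in the results below was not tested.

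The machinery as a whole differed little between the sorted populations. Of the 43 genes, DOCK5 and VAV3, both Rac activators, rose in high uptake, and CYFIP2, a WAVE subunit, fell. The other 40 did not pass the test. Over all tested genes 4.29% were called, 3.03% higher and 1.26% lower, and 3 of 43 called genes is close to that share. The median log2 fold change (high minus low uptake) was 0.07 over the 43, against -0.00 over all tested genes. A positive log2 fold change was found for 33 of the 43, or 76.7%, and for 49.3% of all tested genes. The groups of 3 did not overlap for 9 of the 43, a share that can be read against 24.4% of all tested genes. The 43 were chosen by name with earlier results of these data known, so their counts are not independent of those results.

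**Figure D1:**
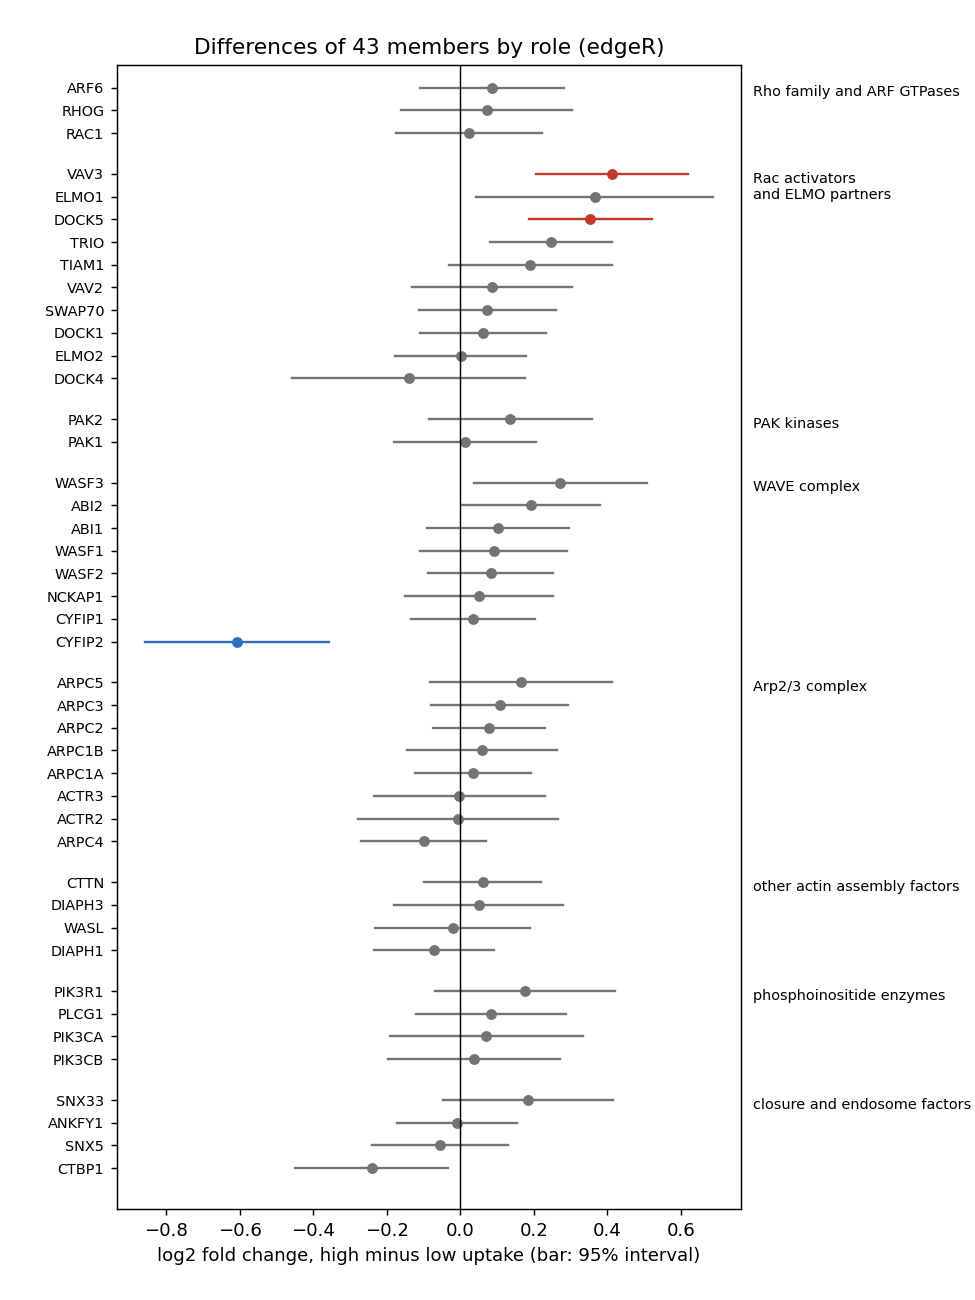
Log2 fold change of 43 genes, high minus low uptake (horizontal axis), with 95% intervals as bars, grouped by role. Red marks the called rises VAV3 and DOCK5, blue the called fall CYFIP2, and grey the 40 genes not called; the intervals of the 8 Arp2/3 genes all include 0.

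Members differed far more from each other in level than between high and low uptake. Levels are compared between genes only on the authors' TPM scale, which divides by gene length. On it, ARPC2 stood highest, and the Arp2/3 genes ranged from 138 TPM for ARPC5 to 605 TPM for ARPC2 on average over the 6 libraries. CTTN, which encodes cortactin, a stabiliser of actin branches, stood at 371 TPM, and RAC1 at 266 TPM. WAVE genes ranged from 11.9 TPM for WASF3 to 216 TPM for NCKAP1. Rac activators and their ELMO partners ranged from 1.40 TPM for DOCK4 to 80.7 TPM for TRIO. The enzymes of phosphoinositide signalling lay between 9.0 TPM for PIK3R1 and 60.6 TPM for PLCG1.

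**Figure D2:**
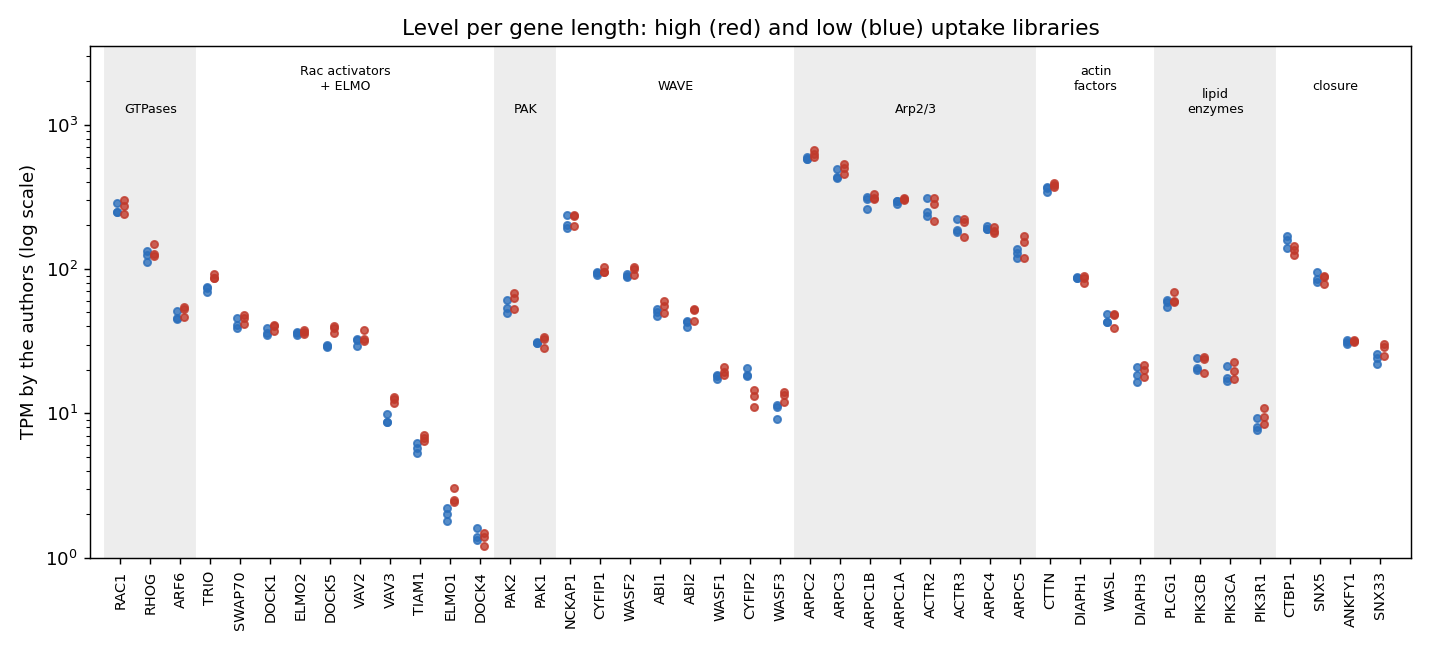
Authors' TPM (log axis) of 43 genes in the 3 low-uptake (blue) and 3 high-uptake (red) libraries, grouped by role and ordered by mean. Arp2/3 genes lie between 118 and 663 TPM in single libraries, and DOCK4 and ELMO1 lie lowest. Only CYFIP2, VAV3 and DOCK5 were called.

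The Rac activators and their ELMO partners, which recruit DOCK proteins, held both called rises. Of 10 genes in this role, 2 rose, none fell and 9 had a positive log2 fold change, with a median of 0.14. Over all tested genes, 3.03% were higher and 49.3% had a positive value. DOCK5, an atypical exchange factor that works with ELMO, stood at 124, 112 and 118 CPM in high replicates 2, 3 and 4, and at 92.0, 92.2 and 92.9 CPM in low replicates 2, 3 and 4. The lowest high-uptake library was well above the highest low-uptake library, and the low-uptake values were nearly identical. The log2 fold change was 0.35 (SE 0.0765, 95% interval 0.19 to 0.52, adjusted p = 0.0263), a 1.28-fold difference. VAV3, an exchange factor activated by phosphorylation downstream of growth factor receptors, stood at 25.8, 23.6 and 24.6 CPM in high replicates 2, 3 and 4 and at 19.8, 17.9 and 17.9 CPM in the low ones. The groups did not overlap, and replicate 2 was the highest library of each. The difference was 0.41 on the log2 scale (SE 0.0946, 95% interval 0.21 to 0.62, adjusted p = 0.0335), or 1.33-fold. Neither call held when high replicate 2 or 4 or low replicate 3 or 4 was left out. In that order, the adjusted p was 0.0923, 0.0950, 0.108 and 0.123 for DOCK5 and 0.104, 0.109, 0.136 and 0.157 for VAV3. DOCK5 also lost its call once each library's trend with gene length was removed (log2 0.29, adjusted p = 0.0577).

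For VAV3 and CYFIP2, called in opposite directions, the 250 bases before a listed gene start are shown. CYFIP1 stands beside them as the related gene that was not called. The stretch of DOCK5, the other called gene, is not shown. The sequences are from RefSeq on GRCh38.p14, a different build from the hg19 of the count files, and capitals mark motif matches on either strand, which do not overlap here. One motif is the AP-1 site, spelled TGANTCA. Another is the CCAAT box, whose letters are its name. The other motif in capitals is the GC box, spelled GGGCGG. A TEAD site (GGAATG), the hypoxia response core (ACGTG) and the E-box that contains it (CACGTG) were also searched and had no match in the 3 stretches. The VAV3 stretch is chr1:107688500-107688749 on the minus strand, that of CYFIP2 chr5:157265873-157266122 on the plus strand and that of CYFIP1 chr15:22980899-22981148 on the minus strand.
VAV3: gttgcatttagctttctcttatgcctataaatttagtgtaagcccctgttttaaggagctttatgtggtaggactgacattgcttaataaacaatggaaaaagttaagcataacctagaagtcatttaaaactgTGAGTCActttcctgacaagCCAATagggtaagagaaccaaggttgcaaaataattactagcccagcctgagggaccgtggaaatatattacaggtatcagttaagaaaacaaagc
CYFIP2: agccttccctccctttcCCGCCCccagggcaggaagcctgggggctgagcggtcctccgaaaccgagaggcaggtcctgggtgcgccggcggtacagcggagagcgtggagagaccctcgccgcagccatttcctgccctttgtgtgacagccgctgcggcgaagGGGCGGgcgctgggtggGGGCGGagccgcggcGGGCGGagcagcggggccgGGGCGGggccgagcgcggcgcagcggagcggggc
CYFIP1: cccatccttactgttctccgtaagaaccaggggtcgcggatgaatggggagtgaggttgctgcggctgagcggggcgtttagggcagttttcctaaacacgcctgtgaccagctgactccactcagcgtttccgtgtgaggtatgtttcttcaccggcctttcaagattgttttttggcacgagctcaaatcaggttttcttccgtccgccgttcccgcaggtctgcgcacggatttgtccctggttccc
The VAV3 stretch is poor in G and C (37.2%) with 1 CG pair, and the CYFIP2 stretch rich (76.4%) with 30 CG pairs, while CYFIP1 had 55.6% and 17. In CYFIP2 there were 5 GC boxes, and none in VAV3 or CYFIP1. An AP-1 site lies 116 bases before this VAV3 start and a CCAAT box 96 bases before it. Of the 43 genes, 37 had a stretch in the RefSeq table, and 30 of these (81.1%) held a GC box, against 65.4% of 10375 tested genes and 42.3% of all 27305 promoters of that length. VAV3 was the only one of the 37 with an AP-1 site (2.70%), against 4.30% of the tested genes and 6.60% of all promoters. A CCAAT box was in 12 of the 37 (32.4%), against 34.8% and 33.0%. A match is only a run of letters. For each gene 1 RefSeq stretch was kept, the first listed, and a gene can have further starts. The start shown need not be the one used in U87. Whether the VAV3 stretch lies before its longest transcript was not checked.

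TRIO, a large protein with 2 exchange factor domains that acts on Rac and RhoG, was the most abundant of the activators per length. It stood at 359.6, 390.0 and 356 CPM in high replicates 2, 3 and 4 and at 292, 323 and 318 CPM in the low ones. No high-uptake library was as low as any low-uptake one, yet the difference of 0.25 (SE 0.0753, adjusted p = 0.0961) did not pass. ELMO1, a scaffold for DOCK proteins, was scarce, at 6.86, 8.54 and 6.60 CPM in the high and 4.94, 6.27 and 5.72 CPM in the low libraries. The difference was 0.37 on the log2 scale (interval 0.04 to 0.69, adjusted p = 0.212). Its relative ELMO2 stood at 52.9, 56.1 and 56.0 CPM in high and 52.9, 56.5 and 55.4 CPM in low uptake, practically level (log2 0.00, interval -0.18 to 0.18). The sign of this value was negative with RLE and with upper quartile scaling. TIAM1, a Rac-specific exchange factor, lay at 18.6 to 21.2 CPM in high and 16.1 to 18.6 CPM in low uptake, where the groups were just apart (log2 0.19, adjusted p = 0.354). VAV2, DOCK1 and SWAP70 had log2 fold changes of 0.09, 0.06 and 0.07, with groups that overlapped. DOCK4, the scarcest of the 43 genes, was the only one in this role with a negative value (log2 -0.14, interval -0.46 to 0.18), on 69 counts in the shallowest library. Summed over the 10 genes, the level was 849 to 881 CPM in high and 745 to 767 CPM in low uptake, and TRIO made up the largest part of it.

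**Figure D3:**
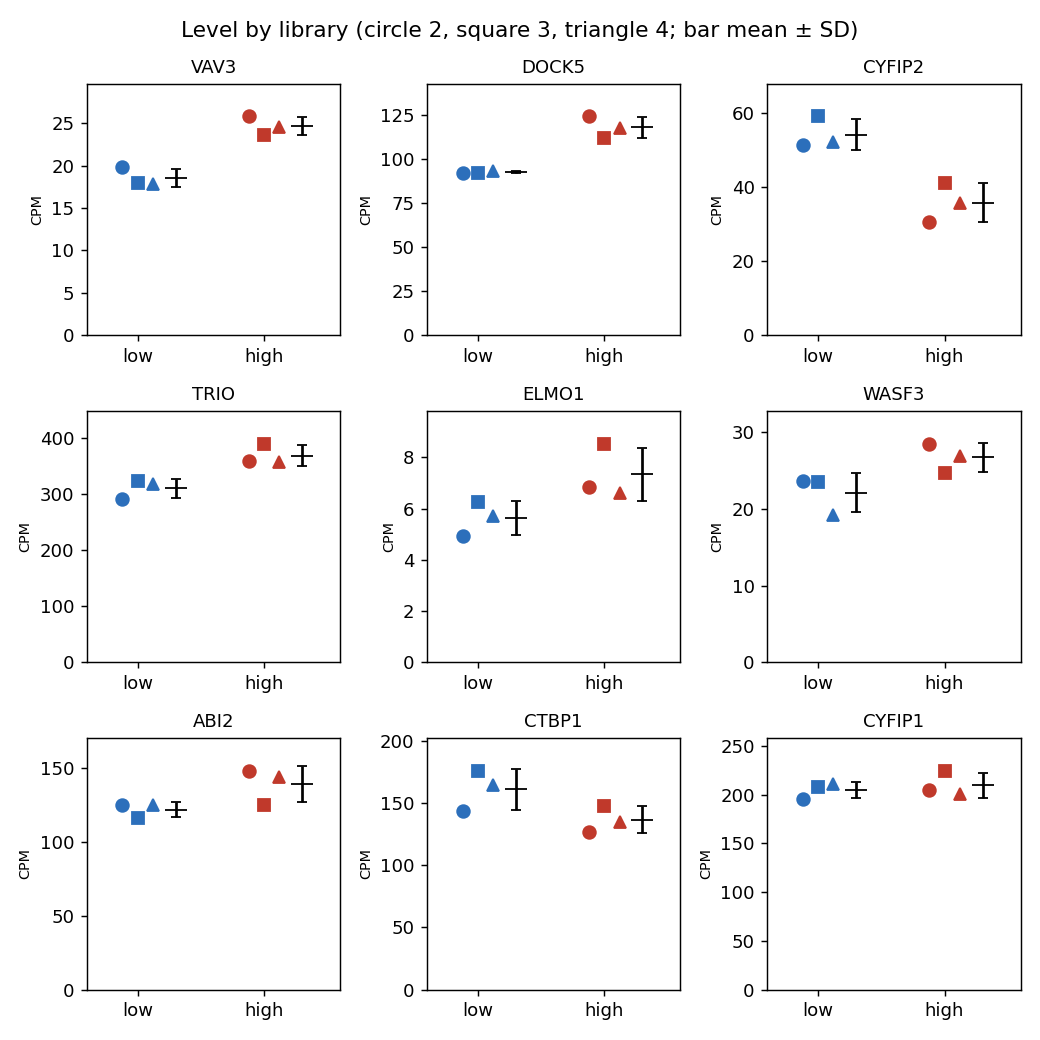
CPM of 9 genes in each library (vertical axis from 0), with low uptake in blue and high uptake in red; circles, squares and triangles are replicates 2, 3 and 4, and bars give mean ± SD. VAV3 and DOCK5 were higher and CYFIP2 lower in every high-uptake library than in any low-uptake library. TRIO, ELMO1, WASF3 and ABI2 were also higher in every high-uptake library but were not called, while CYFIP1 and CTBP1 overlapped.

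The GTPases themselves did not differ detectably. RAC1, the switch at the centre of ruffling, stood at 293, 238 and 263 CPM in high replicates 2, 3 and 4 and at 282, 250 and 249 CPM in the low ones. These ranges overlapped fully (log2 0.02, SE 0.0912, interval -0.18 to 0.22). ARF6, which governs membrane recycling to ruffles, stood at 87.2, 75.9 and 83.1 CPM against 72.7, 75.8 and 84.2 CPM (log2 0.09, interval -0.11 to 0.28, adjusted p = 0.674). For RHOG, which acts upstream of ELMO and DOCK proteins, the log2 fold change was 0.07 (interval -0.16 to 0.30). PAK2, a kinase that binds active Rac, stood at 169.8, 135 and 156 CPM in high and 154, 128 and 138 CPM in low uptake (log2 0.14, SE 0.101, adjusted p = 0.525). In both groups replicate 2 was highest and replicate 3 lowest. Its relative PAK1, at 41.0 to 48.0 CPM in high and 44.4 to 44.9 CPM in low uptake, had a log2 fold change of 0.01, which turned negative with upper quartile scaling.

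Within the WAVE complex, CYFIP2 fell and no other subunit was called. The complex joins a CYFIP, an NCKAP1, an ABI and a WASF protein with BRK1, and CYFIP1 and CYFIP2 are alternative subunits that bind Rac. CYFIP2 stood at 30.6, 41.2 and 35.8 CPM in high replicates 2, 3 and 4 and at 51.4, 59.1 and 52.2 CPM in the low ones. All 3 high-uptake values were below all 3 low-uptake values, with replicate 3 the highest of each group. The log2 fold change was -0.61 (SE 0.114, interval -0.86 to -0.36, adjusted p = 0.0141), so that high uptake held 0.657 of the low-uptake level. This call was lost without high replicate 4 (adjusted p = 0.0643) or low replicate 3 (adjusted p = 0.0564, log2 -0.54). CYFIP2 exons overlap only 62 bases of a gene on the other strand, ADAM19, in GENCODE v29.

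CYFIP1, the more abundant form, stood at 205, 224 and 200.4 CPM in high and 196, 207 and 211 CPM in low uptake. Its groups overlapped (log2 0.04, interval -0.13 to 0.20, adjusted p = 0.866). Over all its exons in GENCODE v29, 12.8% of the length overlaps NIPA2 on the other strand, where reads cannot be assigned if the counting ignored strand. Those exons span 10414 bases and the authors' gene model 5266 bases, so the share of the counted sequence is not known. As a share of CYFIP1 and CYFIP2 TPM together, CYFIP2 made up 10.3%, 12.4% and 12.1% in high replicates 2, 3 and 4 and 16.9%, 18.1% and 16.1% in the low ones. The means were 11.6% ± 1.12 and 17.0% ± 1.01 (SD, n = 3 each), and no high-uptake library reached the lowest low-uptake share.

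NCKAP1, the most abundant WAVE gene per length, stood at 483, 409.5 and 469.8 CPM in high and 488, 405 and 423 CPM in low uptake, with overlap (log2 0.05, interval -0.15 to 0.25). WASF3, 1 of the 3 subunits that activate Arp2/3, was at 28.5, 24.7 and 26.9 CPM in high and 23.6, 23.5 and 19.3 CPM in low uptake. The groups were separate by a narrow margin, and the difference of 0.27 (SE 0.108, adjusted p = 0.203) was not called. WASF2, which made up 73.7% to 77.0% of WASF1, WASF2 and WASF3 TPM in single libraries, had a log2 fold change of 0.08, and WASF1 0.09. ABI2 stood at 148, 125 and 144 CPM in high and 125, 116 and 125 CPM in low uptake, where high replicate 3 lay just above the low-uptake values (log2 0.19, SE 0.0858, adjusted p = 0.259). Of 23331 exon bases of ABI2 in GENCODE v29, 8870 overlap RAPH1 on the other strand. The authors' gene model of ABI2 spans only 6927 bases, so how much of the counted sequence overlaps is not known. For ABI1 the log2 fold change was 0.10. Over the 8 subunits, 1 fell and 7 had a positive log2 fold change, with a median of 0.09. Of all tested genes, 1.26% were lower and 49.3% had a positive value.

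No Arp2/3 gene was called in the main edgeR fit. The complex holds the actin-related proteins ACTR2 and ACTR3, which start a new filament, and 5 further subunits, of which ARPC1 has the forms ARPC1A and ARPC1B. Log2 fold changes ran from -0.10 for ARPC4 to 0.17 for ARPC5, with a median of 0.05, and the 95% intervals of all 8 lay between -0.28 and 0.41. The upper end, that of ARPC5, is as large as the called rise of VAV3. In edgeR, 0 of 8 passed at an unadjusted p under 0.05 as well, against 18.4% of all tested genes. DESeq2 and limma, which called 6.08% and 4.13% of all tested genes, also called 0 of the 8. With each library's GC trend removed, ARPC5 was called (log2 0.18, adjusted p = 0.0376). With replicate number also in that edgeR fit, ARPC3 was called as well (adjusted p = 0.0208). ARPC2, a core subunit and the most abundant per length, stood at 424, 387 and 394 CPM in high and at 380.7, 380.5 and 379.6 CPM in low uptake. The groups did not overlap, but the low-uptake values were almost the same (SD 0.579 CPM, n = 3) and the difference was 0.08 (SE 0.0697, adjusted p = 0.603). ARPC5 stood at 143, 102 and 129 CPM in high and 117, 105 and 112 CPM in low uptake, so that high replicate 3 was the lowest of all 6 and high replicate 2 the highest (log2 0.17, SE 0.113, adjusted p = 0.481). ACTR2 stood at 493, 352 and 443 CPM in high and 497, 389 and 408 CPM in low uptake, a wide spread that the groups shared (log2 -0.01, interval -0.28 to 0.27). For ACTR3 the log2 fold change was -0.00 and its interval -0.24 to 0.23. ARPC1A, ARPC1B and ARPC3 had values of 0.03, 0.06 and 0.11. In GENCODE v29, ARPC4 shares 541 of its 3608 exon bases with the read-through gene ARPC4-TTLL3, so its counts could be split in counting. The authors' gene model of ARPC4 spans 2081 bases. Among further actin factors, CTTN stood at 495, 536 and 503 CPM in high and 460, 507 and 503 CPM in low uptake (log2 0.06, adjusted p = 0.718). The formin DIAPH1, which builds unbranched filaments, stood at 187, 207 and 206 CPM in high and 204, 212 and 214 CPM in low uptake (log2 -0.07, adjusted p = 0.678). WASL, the N-WASP activator of Arp2/3, had a log2 fold change of -0.02, and the formin DIAPH3 0.05.

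The lipid enzymes gave no call in the main edgeR fit. PIK3R1, a regulatory subunit of PI 3-kinase, stood at 34.2, 26.7 and 29.1 CPM in high replicates 2, 3 and 4 and at 29.3, 24.7 and 26.0 CPM in the low ones. These ranges overlapped, and the log2 fold change was 0.18 (SE 0.112, interval -0.07 to 0.42, adjusted p = 0.444). The catalytic subunit genes PIK3CA and PIK3CB had values of 0.07 and 0.04, with intervals of -0.19 to 0.33 and -0.20 to 0.27. Of 9494 exon bases of PIK3CA in GENCODE v29, 35.8% overlap KCNMB3 on the other strand. The authors' gene model of PIK3CA spans 3709 bases, so its overlap is not known. PLCG1, the phospholipase C of receptor signalling, stood at 126, 149.8 and 126 CPM in high and 117, 133 and 128 CPM in low uptake, with overlap (log2 0.08, adjusted p = 0.695). In edgeR, 0 of these 4 passed at an unadjusted p under 0.05, and DESeq2 and limma called 0. With the GC trend removed, PIK3R1 came nearest to a call (log2 0.19, adjusted p = 0.0601). With replicate number also in that edgeR fit, PIK3R1 was called higher (adjusted p = 0.0271). The median over the 4 was 0.08.

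Genes of cup closure and early macropinosomes held the second-lowest value. CTBP1, whose product CtBP1/BARS takes part in sealing the cup and also represses transcription, stood at 126, 148 and 135 CPM in high replicates 2, 3 and 4 and 143, 176 and 164 CPM in the low ones. High replicate 3 was above low replicate 2, while within each number the high-uptake library was the lower. The log2 fold change was -0.24 (SE 0.0949, interval -0.45 to -0.03, adjusted p = 0.203). CTBP1-AS overlaps 9.7% of the 8361 exon bases of CTBP1 in GENCODE v29 on the other strand, while the authors' gene model spans 2483 bases. SNX33, a sorting nexin, lay at 32.9 to 40.3 CPM in high and 29.3 to 35.2 CPM in low uptake (log2 0.18, adjusted p = 0.390). SNX5, another sorting nexin of macropinosomes, and ANKFY1, a Rab5 effector also called Rabankyrin-5, had log2 fold changes of -0.06 and -0.01. The SNX5 interval was -0.24 to 0.13 and that of ANKFY1 -0.17 to 0.15.

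Ratios between related genes were then taken within each library, which needs no scaling between libraries. For 10 pairs, the log2 ratio of counts per kilobase was compared between groups with an exact two-sided permutation test, whose smallest p with 3 against 3 is 0.1. CYFIP2 to CYFIP1 averaged -2.93 ± 0.162 in high and -2.29 ± 0.103 in low uptake (SD, n = 3 each), a difference of -0.64 (exact p = 0.1, 0.333 adjusted over the 10 pairs). DOCK5 to DOCK1 averaged -0.04 ± 0.0162 and -0.33 ± 0.0687, so DOCK5 was close to the level of DOCK1 per length in high uptake and lower in low uptake (difference 0.29, exact p = 0.1, adjusted 0.333). ELMO1 to ELMO2 averaged -3.79 ± 0.186 and -4.16 ± 0.124 (difference 0.37, exact p = 0.1, adjusted 0.333). In these 3 pairs the groups did not overlap, and in the other 7 they did. VAV3 to VAV2 was among the latter, at -1.28, -1.69 and -1.38 in high and -1.56, -1.88 and -1.91 in low uptake (difference 0.33, exact p = 0.2, adjusted 0.429). For ARPC1B to ARPC1A, ABI2 to ABI1 and PIK3CB to PIK3CA the differences were 0.03, 0.09 and -0.03.

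**Figure D4:**
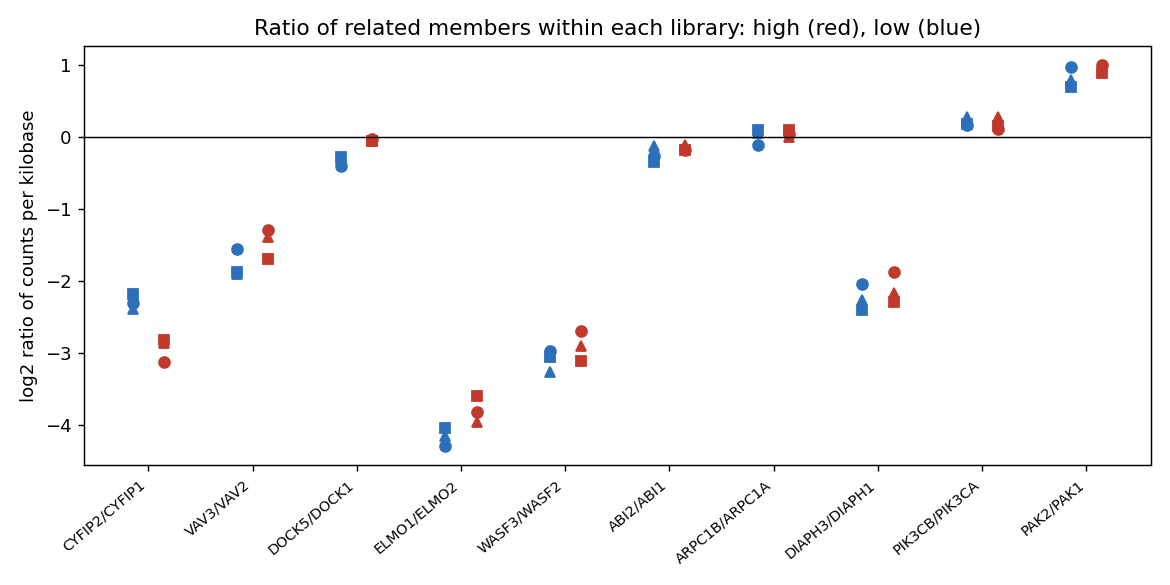
Log2 ratio of counts per kilobase of 10 pairs of related genes in each library (vertical axis), low uptake in blue and high uptake in red, with circles, squares and triangles for replicates 2, 3 and 4. The colours are separate for CYFIP2/CYFIP1, DOCK5/DOCK1 and ELMO1/ELMO2 and overlap for the other 7 pairs.

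The spread within a group followed base composition. Among the 21 genes below the median GC content of the 43 (46.2%), high replicate 3 was below high replicate 2 for 19, by a median of -0.24 on the log2 scale. Among the 22 at or above that median it was below for 5, and the median difference was 0.12. Over the 43 genes, which share these libraries, this difference and GC content had a Pearson r of 0.816 and a Spearman rho of 0.835. Low replicate 2 against low replicate 3 gave r = -0.844 and rho = -0.836 over the same genes. With each library's GC trend removed, 8 of the 43 genes were higher and 2 lower, with 10.9% of 14120 genes higher and 8.18% lower. DOCK5, VAV3 and CYFIP2 were among them, and the further rises were TRIO, WASF3, ABI2, PAK2, ARPC5 and SNX33 and the further fall CTBP1. The authors' deposited table of gene symbols, which holds 2305 symbols and no values, contains 7 of the 43 (VAV3, TRIO, DOCK5, CYFIP2, WASF3, ABI2 and CTBP1), or 16.3%, and 15.8% of all tested genes.

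Around these genes, a wider list of 159 regulators of Rac, actin and phosphoinositides gave 145 tested genes, of which 8 were higher and 0 lower. That is 5.52% called, against 4.29% of all tested genes, or 3.03% higher and 1.26% lower. The list was drawn up with earlier results of these data known, so its counts are not independent of them. Their median log2 fold change was 0.03. In edgeR 27 had an unadjusted p under 0.05, or 18.6%, against 18.4% of all tested genes, and of the lower genes DESeq2 called 1 and limma 0. Among 16 genes that inactivate or sequester Rac, SRGAP3 and ARHGAP24 rose, where 3.03% of all tested genes were higher. SRGAP3, a GTPase-activating protein for Rac, stood at 4.26, 4.08 and 3.54 CPM in high replicates 2, 3 and 4 and at 2.17, 1.68 and 1.47 CPM in the low ones (log2 1.12, SE 0.189, adjusted p = 0.00796). ARHGAP24, of the same activity, rose by 0.47 (adjusted p = 0.0250). None of 21 further activators passed in edgeR, and 1 had an unadjusted p under 0.05. PIK3R3, another regulatory subunit of PI 3-kinase, was at 18.3, 17.1 and 16.3 CPM in high and 10.2, 10.1 and 10.7 CPM in low uptake, far apart (log2 0.74, SE 0.101, adjusted p = 0.00279). PDGFRB, a receptor whose ligand PDGF induces ruffles, stood at 50.5, 57.7 and 48.0 CPM in high and 23.5, 32.0 and 32.6 CPM in low uptake (log2 0.83, SE 0.129, adjusted p = 0.00535). FYN, a Src family kinase, rose by 0.45, PRKCA, a protein kinase C, by 0.39, SSH1, a cofilin phosphatase, by 0.39 and RAB5B by 0.31. The calls of SRGAP3, PIK3R3 and PDGFRB were kept without any single library. FYN lost its call without low replicate 4 (adjusted p = 0.0568), and PRKCA without high replicate 2, low replicate 3 or low replicate 4 (0.0557, 0.0692 and 0.0874). ARHGAP24 and SSH1 lost theirs when high replicate 2 or 4 or low replicate 3 or 4 was left out, with adjusted p of 0.0784, 0.0573, 0.0765 and 0.133 for ARHGAP24 and 0.0542, 0.0617, 0.0789 and 0.0663 for SSH1. RAB5B lost its call without any library but high replicate 3 (0.0557 to 0.196), and also with upper quartile scaling (0.0525). With the gene length trend removed, RAB5B (adjusted p = 0.0750) and SSH1 (0.0708) were not called. The remaining 137 genes were not called, among them EGFR and the other WAVE and Arp2/3 subunits on the list.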

How the data were processed

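After a directional library preparation (per the labels' protocols), RNA of 6 libraries was sequenced. For the reads, fastp, STAR, featureCounts and build hg19 are listed in the submitters' processing notes. The annotation, the strand setting and the treatment of multi-mapping reads were not given in the sources used here. What the authors deposited are whole-number read counts per symbol. Beside them stand FPKM and TPM values, made by the authors, per the file headers. Tests used the counts, FPKM gave the authors' gene-model length, and TPM served to compare levels between genes. A deposited list of symbols carries no values. Groups and replicate numbers are from the sample titles.

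Genes were kept by filterByExpr (minimum count 10, minimum total 15), scaled by TMM and tested in edgeR 4.0.16 (robust quasi-likelihood F-test, two-sided, no covariate). The standard error is the log2 fold change divided by the square root of F; log CPM used a prior count of 2. Scripts were tested on simulated data. Members and lists were chosen with earlier results of these data known. Values are given for called genes, for the gene of smallest p and of highest level in each role, for pairs that do not overlap, and for up to 20 called genes of the wider list. Further genes were named after their values were seen. Alternatives were other scalings, filters, DESeq2 1.42.0, limma 3.58.1, trends with GC content or gene length, a replicate block and libraries left out.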

Additional observations from a re-analysis of the deposited data

How the results depend on the processing

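Of the 43 genes, 24 kept their direction under all 17 other settings, DOCK5, VAV3 and CYFIP2 among them, and 29 were called under none. DOCK5, VAV3 and CYFIP2 were called under RLE and upper quartile scaling, both other filters, DESeq2, limma, the GC correction and without both libraries numbered 2. With the gene length trend removed 1 gene was higher, because DOCK5 was lost. Leaving out 1 library gave 0 to 2 genes higher and 0 to 1 lower, 182 to 520 of all genes higher and 52 to 233 lower, and 3 to 8 of the wider list higher and 0 to 2 lower. Depth bears most on DOCK4 and ELMO1, which rested on few counts.

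With the GC trend removed, 8 genes were higher and 2 lower, 1543 of all genes higher and 1155 lower, and 26 of the wider list higher and 9 lower. The share of higher among all calls was then 57.2%, against 70.6%. Libraries share replicate numbers, which pairs them only if equal numbers deviate together. The deviations from group means correlated at 0.452, 0.304 and 0.0873 for numbers 2, 3 and 4, and at -0.395 to 0.216 for unequal numbers. Each high-uptake library correlated most with the low-uptake library of its own number. Low replicate 4, though, correlated more with high replicate 3 (0.216). Whether the numbers are pairs is not settled by these values, and the main fit did not take them as pairs. With the replicate block, 6 genes were higher and 2 lower, 1758 and 1418 of all genes, and 27 and 9 of the wider list. With the replicate block and the GC trend removed, these were 12 and 2, 2214 and 1904, and 36 and 13. ABI1 (adjusted p = 0.0454), ARPC3 (0.0208) and PIK3R1 (0.0271) were called in that setting and in no other, and ELMO1 in both fits with the block. For all of these, the cause was not tested. All genes called lower numbered 294 without a filter, where more genes were tested, and 291 in DESeq2; 1 of the wider list was lower in each, and 3 without both libraries numbered 2.

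Values near 0 changed sign without being called. Without both libraries numbered 2 these were ARF6 (-0.0025), DOCK4 (0.016), PAK1 (-0.037), ACTR2 (0.00057), ACTR3 (0.0044), ARPC1B (-0.015) and ANKFY1 (0.0050). ELMO2 was -0.0018 with RLE, -0.014 with upper quartile scaling, -0.0040 with the stricter filter, -0.0021 in DESeq2 and -0.010 with the length trend removed. PAK1 was -0.0028 with upper quartile scaling and PIK3CB -0.0098 with the length trend removed. With the GC trend removed ACTR2 was 0.0085 and ACTR3 0.015, and with the replicate block added 0.0068 and 0.015. Leaving out 1 library changed the sign in at least 1 case for the following, with their range over the 6: RAC1 (-0.057 to 0.094), RHOG (-0.022 to 0.14), VAV2 (-0.00297 to 0.14), ELMO2 (-0.024 to 0.029), PAK1 (-0.037 to 0.071), CYFIP1 (-0.015 to 0.067), NCKAP1 (-0.0034 to 0.14), ACTR2 (-0.12 to 0.12), ACTR3 (-0.088 to 0.1), ARPC1B (-0.029 to 0.12), WASL (-0.077 to 0.064), DIAPH3 (-0.023 to 0.14), PIK3CA (-0.045 to 0.18), PIK3CB (-0.032 to 0.13), PLCG1 (-0.0027 to 0.13), ANKFY1 (-0.031 to 0.013), SNX5 (-0.094 to 0.00104).

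Paralogue ratios are taken within a library, so scaling cannot change them, and a group mean cannot move by more than its SD when 1 of 3 values is left out; neither shows stability. Over the 6 libraries left out, ARPC1B/ARPC1A and PIK3CB/PIK3CA changed sign, and the differences ranged from -0.7 to -0.55 for CYFIP2/CYFIP1, from 0.24 to 0.45 for VAV3/VAV2, from 0.25 to 0.31 for DOCK5/DOCK1, from 0.27 to 0.46 for ELMO1/ELMO2, from 0.091 to 0.29 for WASF3/WASF2, from 0.04 to 0.15 for ABI2/ABI1, from -0.035 to 0.074 for ARPC1B/ARPC1A, from 0.0061 to 0.22 for DIAPH3/DIAPH1, from -0.083 to 0.0023 for PIK3CB/PIK3CA, from 0.061 to 0.2 for PAK2/PAK1.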
